A study of Mus musculus with 6 samples.

Results

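The Dlk1-Meg3 cluster is an imprinted region of mouse chromosome 12. Its 6 genes Dlk1, Meg3, Rian, Mirg, Rtl1 and Dio3 were chosen by name, among 25419 genes in the expression table, and all 6 were present with 33 of the 56671 transcripts. RNA-sequencing had been performed on cochlear tissue of young (1 month) and old (12 months) C57BL/6 mice, an inbred strain with early-onset age-related hearing loss, with 3 samples in each group. In each sample, basilar membranes dissected from the cochleas of 3 mice had been mixed, and the labels state no treatment and no genetic change in either group. The p-values therefore measure the spread between pools, and fewer cells of a type and less RNA per cell cannot be told apart in such bulk samples.

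Imprinted genes are transcribed mainly from the chromosome inherited from a given parent. In this cluster, the protein-coding genes Dlk1, Rtl1 and Dio3 are expressed from the paternal chromosome. The long noncoding RNAs (lncRNAs) Meg3, Rian and Mirg are expressed from the maternal chromosome, where they lie in the same orientation and carry many small nucleolar RNAs (snoRNAs) and microRNAs (miRNAs). The maternal RNAs are known for high levels in neurons and in the embryo.

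From the start of Dlk1 to the end of Dio3, the cluster spans 828.275 kb of chromosome 12 (GRCm38, 109452823 to 110281097). GENCODE M21 places 67 miRNA genes and 23 snoRNA genes in this interval. The Rian gene body holds 13 snoRNA and 4 miRNA genes, the Mirg gene body holds 15 miRNA genes and the Meg3 gene body holds 2. These small RNAs were not analysed here, since none has a row in the table of long transcripts.

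Rtl1 lies on the minus strand (109589193 to 109600330), opposite to a group of miRNAs transcribed from the maternal plus strand. Of 114 mature miRNAs that RefSeq (GRCm38.p6) places in the interval, 11 from 6 hairpins were complementary over their whole length to the Rtl1 transcript ENSMUST00000149046, which has 6358 nt and 2 exons. Their full complementarity follows from their position opposite the Rtl1 exons. They lie between the gene bodies of Meg3 and Rian, and thus outside Meg3, Rian and Mirg. All 11 had different seeds. An arm of each of the 6 hairpins is given 5′ to 3′, with the seed (bases 2 to 8) in capitals.
mmu-miR-431-5p: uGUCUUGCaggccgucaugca
mmu-miR-433-3p: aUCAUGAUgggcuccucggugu
mmu-miR-127-3p: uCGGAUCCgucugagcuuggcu
mmu-miR-434-3p: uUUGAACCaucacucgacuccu
mmu-miR-432: uCUUGGAGuagaucagugggcag
mmu-miR-136-5p: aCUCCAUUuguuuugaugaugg
The site of miR-127-3p occupies nucleotides 2642 to 2663 of the Rtl1 transcript and the site of miR-136-5p nucleotides 199 to 220. They are given below their miRNAs as DNA letters, with the bases opposite the seed in capitals.
Rtl1 site of mmu-miR-127-3p: agccaagctcagacGGATCCGa
Rtl1 site of mmu-miR-136-5p: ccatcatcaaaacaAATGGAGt

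The promoter windows of the cluster genes differed in their CpG content. RefSeq windows of 300 bases (250 before and 50 from the start) were found for 5 of the 6 genes. The window of Rian held 0 CpG and that of Mirg 10, against a median of 7 over 32851 windows, of which 5.43% held none. The Mirg window (109734731 to 109735030) lies inside the gene body, which starts at 109729764. It therefore does not cover the start of the leading Mirg transcript. The windows of Dlk1 and Dio3 held 9 and 25. Meg3 had 2 windows. The downstream window (109545148 to 109545447) held 1 CpG and neither of the motifs named next. The upstream window held 13 CpG and contained both TGACGTCA, a palindrome known as the cAMP response element, from base -57 and TATAAA from base -25 relative to the start. The Dio3 window also contained TATAAA, from base -31, but not TGACGTCA. Neither motif was found in the windows of Dlk1, Rian and Mirg. TGACGTCA was found on either strand in 1.79% of all windows, TATAAA in 13.6% and both in 0.17%. The upstream Meg3 window is shown with these motifs in capitals (chr12:109540746-109541045, plus strand, GRCm38.p6). A match of letters is a description of the sequence and not a site of binding.
Meg3 promoter window: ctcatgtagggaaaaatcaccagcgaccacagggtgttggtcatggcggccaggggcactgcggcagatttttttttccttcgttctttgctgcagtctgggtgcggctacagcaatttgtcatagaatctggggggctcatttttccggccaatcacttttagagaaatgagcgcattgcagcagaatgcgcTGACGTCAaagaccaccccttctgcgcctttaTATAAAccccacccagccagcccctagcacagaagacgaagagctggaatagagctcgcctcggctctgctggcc

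Rian fell in old mice and Meg3 narrowly missed the threshold, while Mirg, Rtl1 and Dio3 did not pass the test and Dlk1 was at or near 0. Among the 6 genes, Rian was the most abundant RNA in every pool, in FPKM, which scales fragments by transcript length and library size. Meg3 was next, followed by Mirg, Rtl1, Dio3 and Dlk1. The lowest pool of each of the first 4 genes lay above the highest pool of the next gene, so that this part of the order held in all 6 pools, whereas Dio3 and Dlk1 overlapped. Among 3492 lncRNA genes in the table, Rian ranked 8 in young mice and 21 in old mice, and Meg3 ranked 37 and 58.

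**Figure D1:**
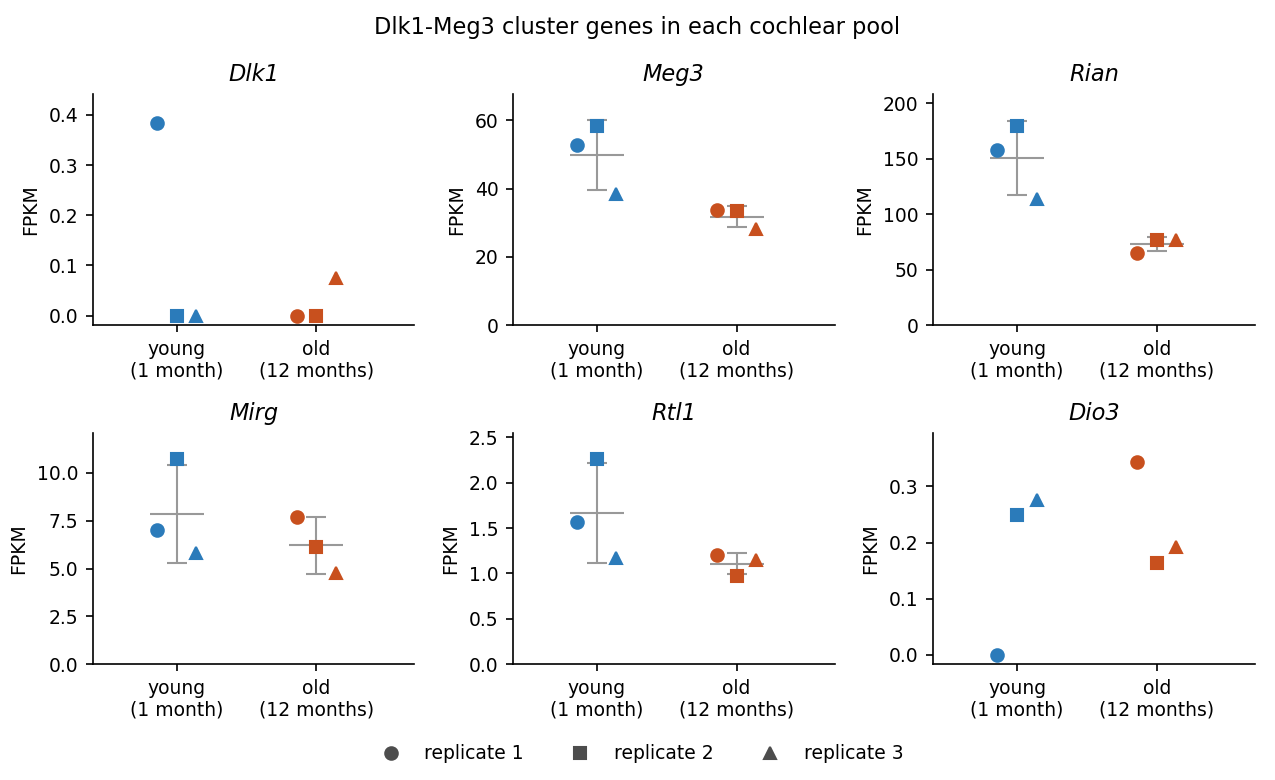
FPKM of the 6 cluster genes, with a point for each pool (shape: replicate number; blue: young, orange: old). Grey bars give the mean and SD of 3 pools and are left out for Dlk1 and Dio3, which had at most 6 estimated fragments in a pool. Young and old pools do not overlap for Meg3 and Rian.

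Rian, a host of C/D box snoRNAs, was at 157.9, 179.5 and 114.0 FPKM in the young pools and at 65.4, 76.5 and 76.4 FPKM in the old pools. Every old pool was below every young pool. The mean fell from 150.5 ± 33.4 to 72.8 ± 6.37 FPKM (SD, n = 3 each). On the scale of log2(FPKM + 0.1), the change was -1.03 (SE 0.16, 95% interval -1.40 to -0.65, limma adjusted p = 0.0186 over 19465 genes). Rian was the only cluster gene called, meaning an adjusted p below 0.05, so that 1 of 5 tested members was called lower, while 3.81% of all genes tested were called lower. The groups did not overlap, in the lower direction, for 2 of the 5 members and for 16.1% of all genes. The call was near the threshold: without old replicate 1, 2 or 3 the limma adjusted p was 0.0595, 0.0656 and 0.0541, at a log2 change between -1.06 and -0.95. Without young replicate 1, 2 or 3 it was 0.0478, 0.0494 and 0.00505.

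Meg3, the lncRNA that starts the maternal transcript group, was at 52.7, 58.4 and 38.4 FPKM in the young pools and at 33.8, 33.4 and 28.3 FPKM in the old pools. The groups did not overlap, with young replicate 3 nearest to the old pools. The mean went from 49.8 ± 10.3 to 31.8 ± 3.07 FPKM (SD, n = 3 each). The log2 change was -0.63 (SE 0.16, 95% interval -0.997 to -0.26) and did not pass the threshold (limma adjusted p = 0.0502). Without young replicate 3 it was -0.80 and passed (limma adjusted p = 0.0117). Without young replicate 1 or 2 the change was -0.58 and -0.50 and did not pass (limma adjusted p = 0.122 and 0.136). Without old replicate 1, 2 or 3 the change was -0.67, -0.66 and -0.55 and did not pass (limma adjusted p = 0.104, 0.122 and 0.131).

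Mirg, the host of a large miRNA group, was at 7.02, 10.7 and 5.80 FPKM in the young pools and at 7.72, 6.15 and 4.76 FPKM in the old pools. The groups overlapped, and old replicate 1 was above young replicates 1 and 3. The log2 change of -0.31 was smaller than the spread between pools (95% interval -0.92 to 0.29, limma adjusted p = 0.477). The interval still holds the change of Meg3. Without young replicate 2 the change was -0.066, without old replicate 3 it was -0.14 and without young replicate 3 it was -0.50.

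Rtl1, a retrotransposon-derived gene best known from the placenta and from muscle, was at 1.57, 2.26 and 1.17 FPKM in the young pools and at 1.20, 0.975 and 1.15 FPKM in the old pools. Young replicate 3 was within the range of the old pools. The log2 change was -0.51 (95% interval -1.17 to 0.15, limma adjusted p = 0.290), and without young replicate 2 it was -0.28. Strand was kept in the libraries, but how it was used in the counting is not given in the sources used here, and Rtl1 is covered by maternal transcription on the opposite strand.

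Dio3, the deiodinase that inactivates thyroid hormone, rested on 0, 4 and 6 estimated fragments in the young pools and on 6, 3 and 4 in the old pools. Its levels were 0, 0.249 and 0.276 FPKM in young mice and 0.343, 0.164 and 0.193 FPKM in old mice. No difference was detectable at this depth (log2 change 0.46, 95% interval -1.06 to 1.98, limma adjusted p = 0.685), and without young replicate 1 the change was -0.16. Dlk1, a membrane protein related to the ligands of Notch, was listed at 0 in 4 of 6 pools, with 0.383 FPKM (3 estimated fragments) in young replicate 1 and 0.0746 FPKM (1 estimated fragment) in old replicate 3. It was below the filter for the test and no fold is given.

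The 3 maternal lncRNAs together amounted to 217.7, 248.5 and 158.2 FPKM in the young pools and 106.9, 116.0 and 109.4 FPKM in the old pools. Whether they changed to a different extent was tested on their ratios within each pool. The log2 ratio of Rian to Meg3 was 1.58, 1.62 and 1.57 in the young pools and 0.95, 1.19 and 1.43 in the old pools. The young pools thus lay close to each other, at a linear ratio of 3.01 ± 0.0559, and every old pool lay below them, at 2.31 ± 0.383 (SD, n = 3 each). The exact permutation p was 0.1, the smallest that 3 against 3 pools allow (two-sided, 0.15 adjusted over 3 ratios). The log2 ratio of Mirg to Rian was higher by 0.71 in old mice without overlap (exact permutation p = 0.1, 0.15 adjusted). The ratio of Mirg to Meg3 overlapped, with a difference of 0.32 (exact permutation p = 0.2, 0.2 adjusted).

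**Figure D2:**
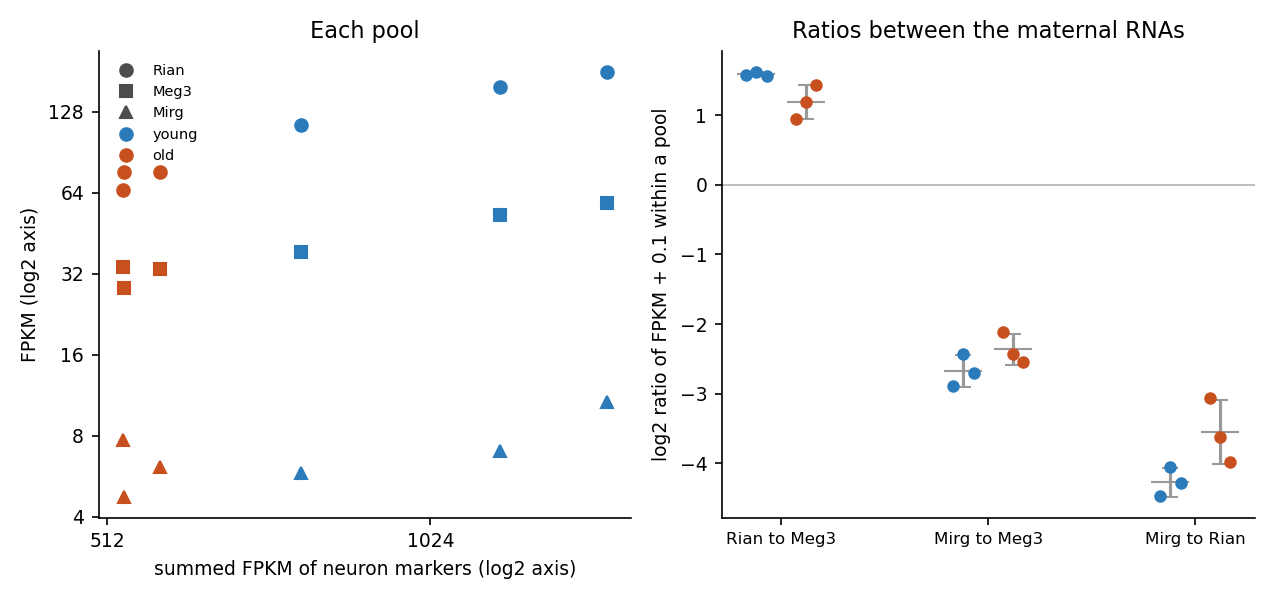
Left, FPKM of Rian, Meg3 and Mirg in each pool against the summed FPKM of 17 neuron markers, both on log2 axes. Right, log2 ratios between the 3 lncRNAs within each pool, with the mean and SD of 3 pools in grey. The ratio of Rian to Meg3 lies between 1.57 and 1.62 in the young pools and between 0.95 and 1.43 in the old pools.

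At the level of transcripts, 23 of 33 passed the filter of a mean of 0.1 FPKM and 20 of these had a lower value in old mice. With limma, 0 of 23 passed an adjusted p of 0.05, while 0.199% of all 38764 transcripts were called lower. At an unadjusted p of 0.05, 6 of the 23 were lower and 0 higher, against 7.98% of all transcripts lower. The groups did not overlap, in the lower direction, for 7 of the 23 and for 12.0% of all transcripts. These 7 were 4 transcripts of Rian, 2 of Meg3 and 1 of Mirg. The 6 at an unadjusted p of 0.05 were 4 of Rian and 2 of Meg3. Transcripts of the same gene can share exons and are not independent, which limits the comparison with these shares.

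Rian was present with 6 of its 20 annotated transcripts, and all 6 had a lower mean in old mice. ENSMUST00000182981 (1219 nt, 8 exons) was at 64.7, 70.9 and 43.2 FPKM in the young pools and 20.6, 27.1 and 29.4 FPKM in the old pools. ENSMUST00000181253 (2355 nt, 11 exons) was at 49.4, 63.5 and 37.1 FPKM in the young pools and 21.9, 24.7 and 25.6 FPKM in the old pools. For both, as for ENSMUST00000182088 (25.03 ± 3.795 to 14.4 ± 3.22 FPKM, SD, n = 3 each), every old pool was below every young pool. These 3 transcripts lie in the downstream part of the gene, from 109646141 to 109661716, and share exons: 97.36% of the exonic bases of ENSMUST00000182088 are also in ENSMUST00000181253, and 72.03% of those of ENSMUST00000182981. How the authors' software divided fragments between them can therefore move their values, while their sum is less affected.

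The upstream part of Rian, from 109603945 to 109645461, is covered by ENSMUST00000183215, ENSMUST00000183180 and ENSMUST00000183266. ENSMUST00000183215 (880 nt, 8 exons) had the largest change of the 6, with 7.27, 8.54 and 6.40 FPKM in the young pools and 3.27, 2.24 and 3.27 FPKM in the old pools (log2 change -1.32, limma adjusted p = 0.0550). The other two overlapped between the groups, with log2 changes of -0.53 and -0.64. Summed, the upstream transcripts went from 15.8 ± 2.55 to 8.57 ± 1.73 FPKM and the downstream transcripts from 134.6 ± 31.0 to 64.2 ± 7.56 FPKM (SD, n = 3 each). The log2 changes were -0.88 and -1.05, and neither part overlapped between the groups (exact permutation p = 0.1 for each, the smallest possible). The downstream part held between 85.0% and 91.4% of the Rian sum in every pool.

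An exon junction that belongs to a single annotated transcript shows which reads can tell it from the others. ENSMUST00000183215 holds 3 such junctions, and ENSMUST00000181253 and ENSMUST00000183266 hold 1 each, whereas none was found for ENSMUST00000182981, ENSMUST00000182088 or ENSMUST00000183180. A junction of ENSMUST00000183215 and that of ENSMUST00000181253 are shown with 14 bases from either exon and the following exon in capitals, the former joining 109606341 to 109617211 and the latter 109656831 to 109658053 (plus strand, GRCm38).
ENSMUST00000183215: ctttatcctggcagCATCTAGACCCGTA
ENSMUST00000181253: tctgttttcttcggAACAGATGCCTTCC

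**Figure D3:**
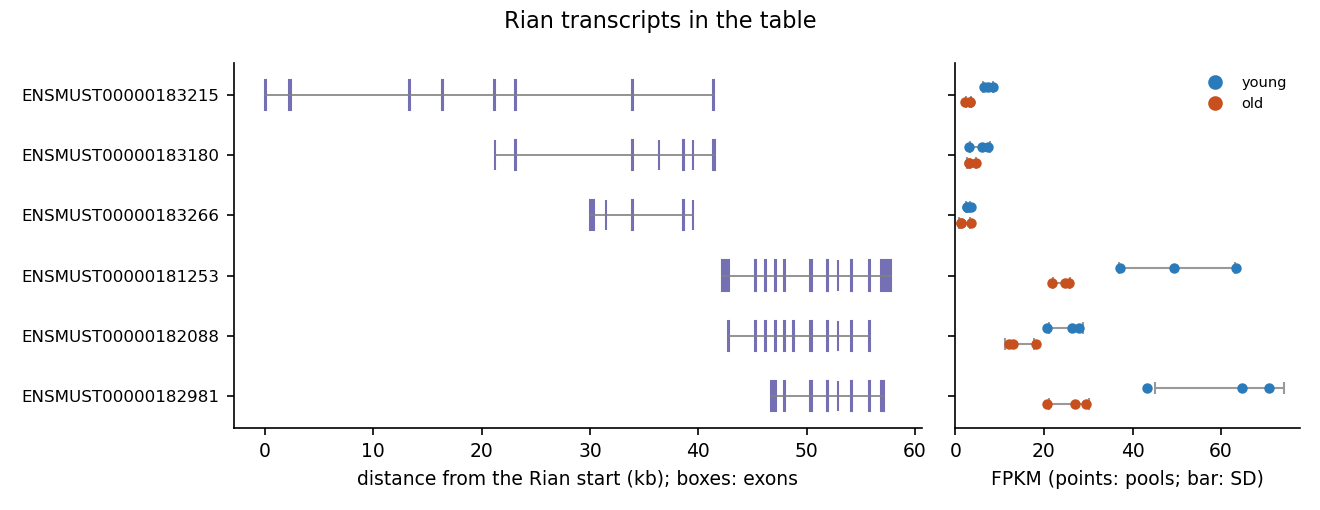
Left, exons (boxes) of the 6 Rian transcripts in the table by distance from the gene start in kb. Right, FPKM of each transcript with a point for each pool and bars of 1 SD around the mean of 3 pools. Old pools lie below all young pools for 4 of the 6 transcripts, of which 3 are the downstream transcripts.

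Meg3 was present with 9 of its 11 annotated transcripts. ENSMUST00000129245 (1498 nt, 3 exons) held the largest share, with 19.2, 21.5 and 15.1 FPKM in the young pools and 14.3, 12.2 and 9.88 FPKM in the old pools. The longest, ENSMUST00000143272 (5971 nt), went from 6.18 ± 1.48 to 3.80 ± 0.425 FPKM (SD, n = 3 each). For both, every old pool was below every young pool, with log2 changes of -0.61 and -0.67 (limma adjusted p = 0.160 and 0.172). ENSMUST00000124106 went from 10.1 ± 5.46 to 5.33 ± 1.63 FPKM, ENSMUST00000143836 from 5.22 ± 0.687 to 4.35 ± 1.36 FPKM and ENSMUST00000128458 from 4.68 ± 2.72 to 3.26 ± 0.351 FPKM, with groups that overlapped. The other 4, ENSMUST00000126289, ENSMUST00000166636, ENSMUST00000143847 and ENSMUST00000150851, had means of at most 2.46 FPKM in either group. They were estimated at or near 0 in some pools, and their log2 changes, from -1.72 to 1.61, had intervals that all held 0.

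Mirg was present with 6 of its 12 annotated transcripts. Its leading transcript ENSMUST00000182074 (850 nt, 2 exons) was at 3.41, 3.90 and 3.76 FPKM in the young pools and 3.34, 3.04 and 2.69 FPKM in the old pools. It was the Mirg transcript whose groups did not overlap, at a log2 change of -0.28 (limma adjusted p = 0.466). The longest transcripts, ENSMUST00000182185 and ENSMUST00000183144, and ENSMUST00000182499 were at 0.561, 0.524 and 1.08 FPKM on average in young mice and at 0.267, 0.173 and 0.879 FPKM in old mice, with groups that overlapped. ENSMUST00000182300, the Mirg transcript with a higher mean in old mice, was at 1.63, 3.20 and 0.000113 FPKM in the young pools and 3.29, 1.71 and 0.601 FPKM in the old pools (log2 change 0.97, 95% interval -2.23 to 4.17). ENSMUST00000183068 was at 0.708 FPKM or less in every pool.

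Of the remaining transcripts, those of Dio3 were ENSMUST00000097228 (at most 0.249 FPKM) and ENSMUST00000173014 (at most 0.276 FPKM). The Dlk1 fragments were placed on ENSMUST00000109841 and ENSMUST00000124293. The 7 other Dlk1 transcripts in the table were estimated at less than 0.00001 FPKM in every pool, namely ENSMUST00000056110, ENSMUST00000109844, ENSMUST00000109843, ENSMUST00000109842, ENSMUST00000109846, ENSMUST00000173539 and ENSMUST00000173812.

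The share of a gene taken by its leading transcript was compared for the 3 lncRNAs, and its groups overlapped for each. ENSMUST00000129245 took 37.5% ± 1.595 of Meg3 in young mice and 37.9% ± 3.93 in old mice (SD, n = 3 each, exact permutation p = 0.9). ENSMUST00000182981 took 39.5% ± 1.52 of Rian in young mice and 35.1% ± 3.48 in old mice (SD, n = 3 each, exact permutation p = 0.2). ENSMUST00000182074 took 49.95% ± 14.3 and 49.8% ± 6.67 of Mirg (SD, n = 3 each, exact permutation p = 1.0). Adjusted over the 3 shares, p was 1.0, 0.6 and 1.0.

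**Figure D4:**
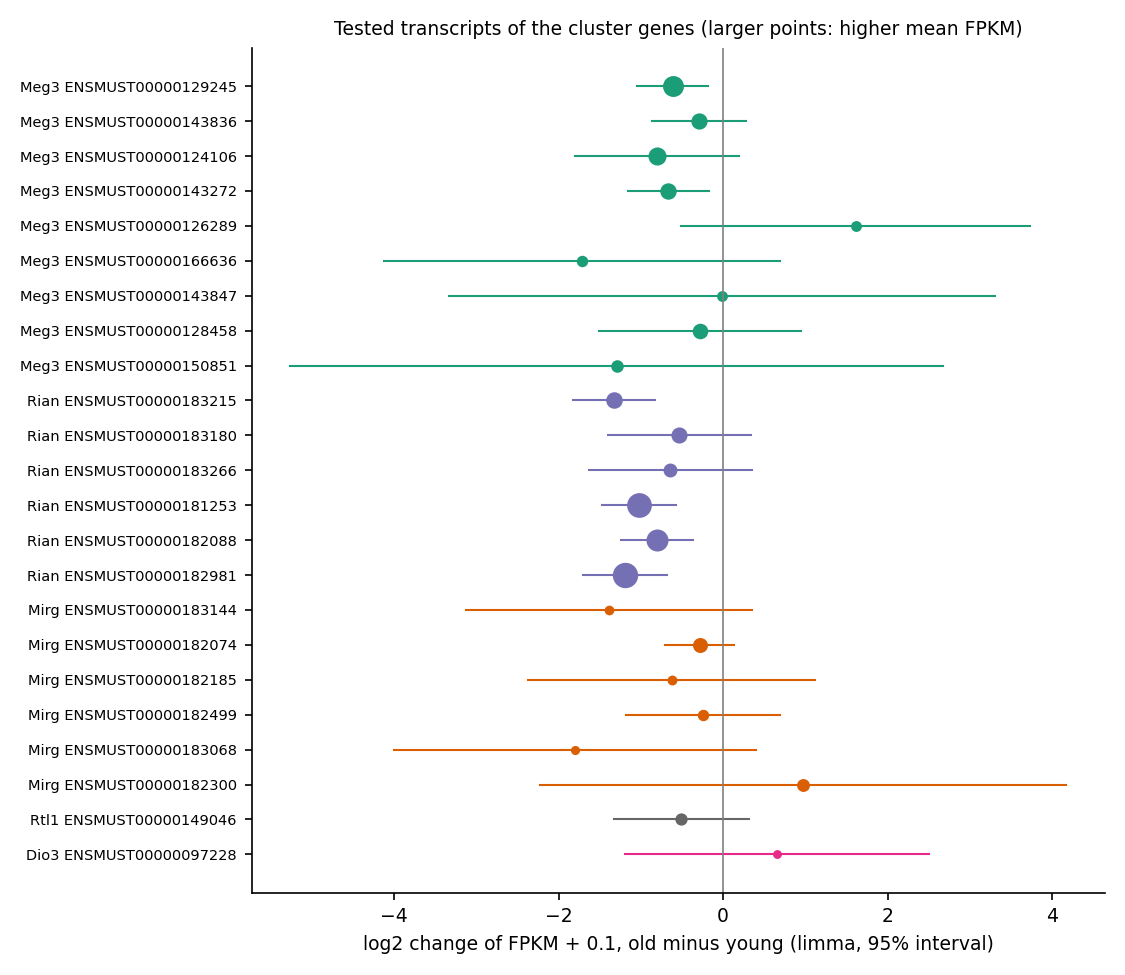
Log2 change in FPKM + 0.1 (old minus young) with its 95% interval from limma for the 23 tested transcripts, coloured by gene, with larger points for higher mean FPKM. The intervals of 4 Rian and 2 Meg3 transcripts lie below 0, and those of weakly expressed transcripts are several log2 units wide.

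Other genes of the interval and its flanks were examined for the same change. Of 112 other genes annotated between Dlk1 and Dio3, 2 had rows in the table, both lncRNAs that passed the filter. B830012L14Rik, between Rian and Mirg, was at 0.713, 1.06 and 0.550 FPKM in the young pools and 0.471, 0.166 and 0.386 FPKM in the old pools, without overlap (log2 change -1.02, limma adjusted p = 0.176). Gm26906 lies on the minus strand within Meg3 (109568628 to 109571723), so that its reads may not be told apart from those of Meg3, and went from 5.80 ± 1.76 to 4.05 ± 0.695 FPKM (SD, n = 3 each, log2 change -0.48, limma adjusted p = 0.229). With limma, 0 of these 2 genes were called, and 1 was lower at an unadjusted p of 0.05, a threshold without a share of all genes here.

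In the 1 Mb on either side, 22 genes were tested. Evl, an actin regulator, and Hsp90aa1, a chaperone, were called lower and 0 were called higher, against 3.81% and 5.65% of all genes. Evl went from 7.20 ± 1.67 to 2.95 ± 0.298 FPKM (SD, n = 3 each, log2 change -1.24, limma adjusted p = 0.0186) and Hsp90aa1 had a log2 change of -0.50 (limma adjusted p = 0.0378). Both calls were lost without young replicate 2 or without any of the old replicates. The median log2 change of the 22 neighbours was -0.02 and that of all genes 0.01, while it was -0.51 for the 5 tested members.

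**Figure D5:**
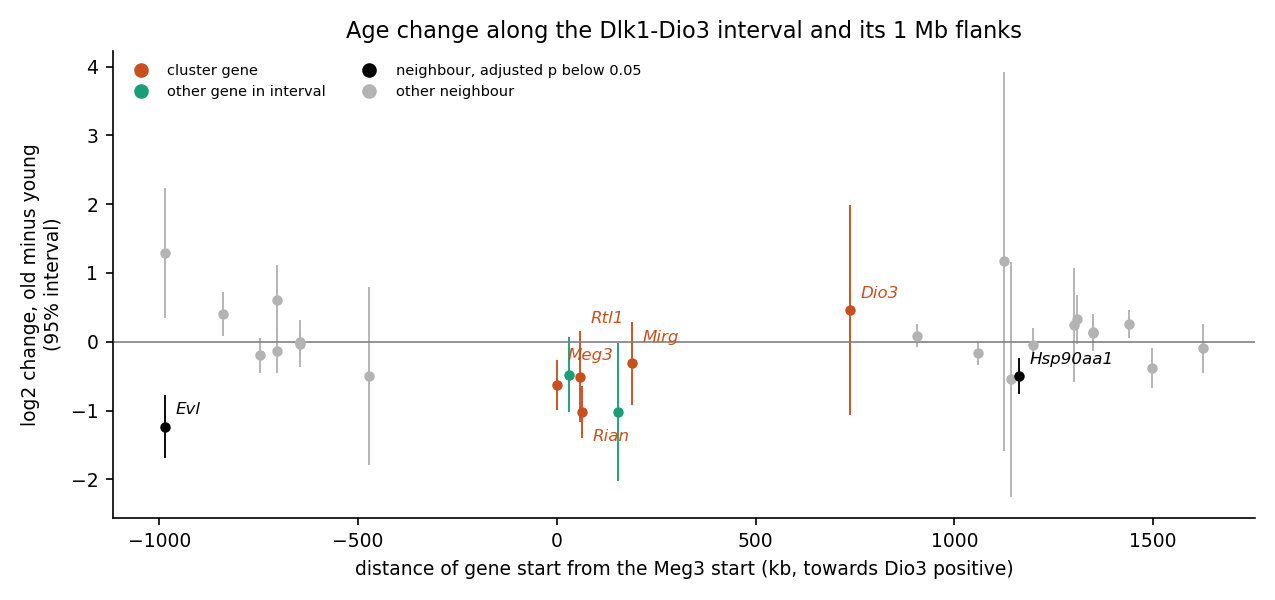
Log2 change (old minus young) with its 95% interval from limma for tested genes, by the distance of their start from the Meg3 start in kb. Meg3, Rtl1, Rian and Mirg and both other genes between them have values below 0, while the neighbours lie on both sides of 0 with a median of -0.02.

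The genes whose pattern over the 6 pools was most like that of a member, by Pearson's r of log2(FPKM + 0.1) among 14985 genes with a mean of at least 1 FPKM, are given as a description. A difference between the age groups that a pair of genes shares also raises r over these 6 pools. For Rian they were Galnt13, a glycosyltransferase, Ncs1, a neuronal calcium sensor, and Dusp27 (r = 0.9985 to 0.9986), each with a log2 change between -1.25 and -1.11. For Meg3 they were Scrt1, a zinc finger repressor of neurons, the calcium channel subunit gene Cacnb4 and Nos1, the neuronal nitric oxide synthase (r = 0.998 to 0.996). For Mirg they were Snhg11, Pcdhb21 and Ado (r = 0.999 to 0.986) and for Rtl1 Ube2j1, Ece2 and Lrrc24 (r = 0.996 to 0.991).

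Among the young pools, replicate 2 was the highest and replicate 3 the lowest for Meg3, Rian, Mirg and Rtl1. The summed FPKM of 17 neuron markers followed the same order, with 1188, 1496 and 776.5 in the young pools and 529.6, 573.9 and 530.8 in the old pools. The marker sums of hair cells, supporting cells, mesenchyme and fibrocytes, endothelium and skeletal muscle also had this order in the young pools. Those of the other marker lists did not. Of the 17 neuron markers, 10 were called lower and 0 higher, 16 had a lower value in old mice and the median log2 change was -0.998. The count of 10 fell to between 0 and 1 without any single pool other than young replicate 3, without which it was 13. The most abundant markers were Snap25, a protein of synaptic vesicle fusion, at 328.2 ± 114.5 and 138.0 ± 5.11 FPKM, and the neurofilament gene Nefl, at 189.1 ± 55.8 and 87.3 ± 2.43 FPKM (SD, n = 3 each). The largest changes among those called were found for Nefm (-1.30), Thy1 (-1.20), Snap25 (-1.19) and Nefl (-1.07).

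Relative to the summed neuron markers, Rian was at 13.3, 12.0 and 14.7 FPKM per 100 FPKM in the young pools and at 12.4, 13.3 and 14.4 in the old pools, so that the groups overlapped (log2 difference 0.0067, exact permutation p = 0.9). Meg3 was at 4.44, 3.90 and 4.95 per 100 FPKM in the young pools and at 6.38, 5.82 and 5.33 in the old pools, higher in every old pool (log2 difference 0.40, exact permutation p = 0.1). Mirg and Rtl1 were also higher in every old pool by this measure (log2 differences 0.72 and 0.52). This ratio was added after the values were seen, and the part of neuronal RNA in the change of the cluster was not tested.

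Markers of other cells also moved with age. Hair cell markers summed to 718 to 961 FPKM in the young pools and 374 to 443 FPKM in the old pools, with 5 of 11 called lower, led by Gfi1 (-2.05), Chrna9 (-1.50), Ocm (-1.18) and Calb2 (-1.11). Most of this sum in every pool came from Calb2, which neurons also express, at 702.6 ± 175.8 and 319.0 ± 25.6 FPKM (SD, n = 3 each). The next most abundant was Ocm, at 135.2 ± 41.1 and 58.4 ± 11.4 FPKM (SD, n = 3 each). Ocm did not follow the order of the sum among the young pools, with 140.2, 91.85 and 173.5 FPKM in young replicates 1, 2 and 3. Schwann cell markers summed to 793 to 1229 and 682 to 713 FPKM, with 3 of 8 called lower. Of 11 mesenchyme and fibrocyte markers, 3 were called lower, namely Col3a1 (-2.25), Col1a2 (-1.93) and Coch (-0.60), and the most abundant were Coch and Otos. Macrophage markers summed to 101.1 to 149.7 and 581.6 to 665.5 FPKM, with 8 of 9 called higher. Osteoblast markers set young replicate 1 apart, with a sum of 219.0 FPKM against 43.7 and 112.0 FPKM in the other young pools and 37.9 to 43.9 FPKM in the old pools. The osteoblast list had 2 of 8 genes called lower, supporting cell markers 1 of 10 in each direction and cartilage markers 2 of 6 in each direction. Among markers of endothelium, adipocytes, skeletal muscle, erythrocytes and proliferation, limma called 0, with 5 lower and 1 higher at an unadjusted p of 0.05. The share of all genes at this unadjusted threshold is not given here. Without any single pool other than young replicate 3, the 48 calls over all 17 lists fell to between 3 and 20. Without young replicate 1, Rian had a log2 change of -0.98 and Meg3 of -0.58. The part of these cells in the change of the cluster was not tested.

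Genes that act with the members or on the cluster were counted beside the 3.81% of all genes called lower and the 5.65% called higher. These shares are for an adjusted p. The share of all genes at an unadjusted p of 0.05 is not given here, so counts at that threshold stand without a comparison. Of 18 tested genes listed as partners of Dlk1 or of the Notch pathway, in which Dlk1 acts, 1 was called lower, the endothelial receptor gene Notch4 (5.97 ± 0.312 to 3.63 ± 0.353 FPKM, SD, n = 3 each, log2 change -0.70, limma adjusted p = 0.0259), and 0 were called higher. At an unadjusted limma p of 0.05, 6 of these 18 were lower and 0 higher. Of 22 genes of the thyroid hormone axis, in which Dio3 acts, 1 was called higher, the hormone-responsive transcription factor gene Klf9 (79.3 ± 8.99 to 108.2 ± 10.6 FPKM, SD, n = 3 each, log2 change 0.45, limma adjusted p = 0.0423), and 0 were called lower. At an unadjusted limma p of 0.05, 5 of this list were lower and 2 higher. The calls of Notch4 and Klf9 were both lost without young replicate 2 or any old replicate. That of Notch4 was also lost without young replicate 1 and with the replicate block, and that of Klf9 without young replicate 3 and under quantile normalization. Under quantile normalization 0 genes of the thyroid axis were called higher and 2 lower, and with a mean of at least 1 FPKM 1 was called in each direction. The activating deiodinase gene Dio2 was at 7.25 ± 0.315 and 5.74 ± 0.832 FPKM (SD, n = 3 each, log2 change -0.34, limma adjusted p = 0.163). Of 21 tested regulators of imprinting and chromatin at the cluster, among them Zfp57, Trim28, Dnmt1 and Ctcf, limma called 0, with 1 lower and 0 higher at an unadjusted p of 0.05.

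The cluster can be set beside imprinted genes elsewhere in the genome. Of 47 tested, 6 were called lower and 3 higher, against 3.81% and 5.65% of all genes, and the median log2 change was -0.09. The lower genes were led by Mest (-1.13), Nap1l5 (-1.002), Peg3 (-0.83) and Ndn (-0.75), of which Nap1l5 went from 40.8 ± 12.4 to 19.7 ± 1.43 FPKM (SD, n = 3 each). The higher genes were Airn (0.65), Cdkn1c (0.56), an inhibitor of the cell cycle, and Cd81 (0.39). The counts fell to 0 to 1 lower and 0 to 1 higher without any single pool other than young replicate 3, without which they were 7 and 3.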

How the data were processed

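RNA of pooled cochlear tissue was measured in 3 young and 3 old samples of C57BL/6 mice. Per the labels and the study's methods, the authors made directional libraries from total RNA, and the submitters' processing notes name CASAVA 1.8, TopHat2 2.0.9, Cufflinks 2.1.1, Cuffdiff 2.1.1 and the build GRCm38. The deposited values are FPKM per transcript and sample and were not scaled further. Samples were grouped by their labels, and 0 columns of samples were left unused. Low FPKM values come in steps worth a fragment, from which the depth was estimated at 12560000 to 15660000 fragments per sample, and 92.4% to 94.2% of low values lay within 0.1 of a whole number of fragments. This precision covers counting error only.

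Transcripts were matched to GENCODE M21 (55275 of 55679 Ensembl transcripts) and summed per gene. Groups were compared by limma 3.58.1 under R 4.3.3, with functions lmFit and eBayes (trended variance, two-sided), on log2(FPKM + 0.1) for genes or transcripts with a mean of at least 0.1 FPKM, adjusted by the Benjamini-Hochberg method over all of them, with a threshold of 0.05. Fold changes on this scale understate the change of low genes. The study's test needs reads, which were not used here. Ratios and shares were compared by an exact two-sided permutation test. The code was tested on simulated data. Tables and sequences were handled in Python 3.11.15 with pandas 2.3.3, and plots in matplotlib 3.10.9.

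The members and the 17 other gene lists were chosen with earlier results of these data known. The genes named are all members and their transcripts, the other genes tested between Dlk1 and Dio3, the 3 most alike genes of each member with a mean of at least 1 FPKM, up to 4 called genes of each list with the largest change, and the 2 most abundant neuron, hair cell and mesenchyme markers. Evl, Hsp90aa1, Dio2 and the genes named as regulators of the cluster were added after their values were seen. The replicate numbers were checked and did not pair the samples: deviations from the group means of same-numbered samples correlated at 0.03, -0.09 and 0.04. The alternatives tried were the pseudocount, the filter, the scaling, the variance trend, sample weights, a replicate block, each sample left out, the set over which p is adjusted and the most abundant transcript per gene.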

Additional observations from a re-analysis of the deposited data

How the results depend on the processing

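Rian and Meg3 kept a lower value in old mice under each setting that compared FPKM itself. The count of called members, 1 of 5, was 2 with a mean of at least 1 FPKM, with sample weights, with the replicate block and with an unadjusted p (Meg3 added), was 0 without the variance trend and over lncRNA genes alone, and ranged from 0 to 2 with a sample left out. The adjusted p of Rian was 0.0636 without the variance trend and 0.0550 over lncRNA genes alone. The limma adjusted p of Meg3 was 0.121 and 0.111 in these settings. It was between 0.104 and 0.136 without any single pool other than young replicate 3. The count of called transcripts, 0 of 23, was 1 at the stricter filter and with sample weights, 6 with an unadjusted p, and ranged from 0 to 2 with a sample left out. The 2 calls among the interval and its neighbours were 1 with the replicate block and ranged from 0 to 2 with a sample left out. The 48 calls over the gene lists ranged from 3 to 53 with a sample left out, where fewer samples were fitted. With the replicate block, the adjusted p was 0.0397 for Rian, 0.0412 for Meg3, 0.381 for Mirg, 0.354 for Rtl1 and 0.726 for Dio3. The replicate numbers came from the labels and did not pair the samples, and only some samples correlated best with their own number.

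Relative to the neuron markers, an alternative chosen after seeing the data, the log2 differences were 0.40 for Meg3, 0.0067 for Rian, 0.72 for Mirg and 0.52 for Rtl1. The change of Dio3 ranged from -0.16 to 0.80 with a sample left out, that of the Meg3 transcripts ENSMUST00000143847 from -1.20 to 1.17 (0.30 with sample weights) and ENSMUST00000128458 from -0.91 to 0.093, and that of the Mirg transcripts ENSMUST00000182185 from -0.94 to 0.0042 and ENSMUST00000182300 from -0.56 to 1.96. The difference in the share of the leading transcript of Meg3 was -0.55 percentage points with transcripts of 500 nt or longer and ranged from -1.84 to 1.89 with a sample left out, and that of Mirg was 1.18 with a pseudocount of 1 and ranged from -6.96 to 7.26. The cause of these shifts was not tested. The depth limits Dlk1 and Dio3, whose fragments numbered at most 3 and 6 in a pool.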
